A study of Mus musculus with 21 samples.

Results

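The 200 transcripts whose amounts differed most between wild-type mouse livers are described here, out of 45708 rows in the count table. Each row is one feature that the submitters counted. The table pairs no row with a gene name or identifier, so a row is known by its number alone, counted downward from the first, and no gene, pathway, cell type marker or sequence can be attached to them. The 200 rows were selected on measured values in the 13 wild-type livers. A row had to average at least 10 CPM (counts scaled to one common library total) in these livers, which 6260 rows did. The 200 rows of highest wild-type mean were then set aside, which left 6060 eligible rows. Levels were put on the log2(CPM + 0.5) scale, the wild-type mean of each of 2 mouse series was subtracted, and the 200 rows with the largest SD over the 13 residuals were kept. A residual is thus a mouse's log2 level above or below the mean of its own genotype and series.

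Whole livers came from 21 C57BL/6J mice aged 12 to 16 weeks on standard chow, of which 8 are labelled NDI1 and 13 wild-type. NDI1 is the yeast NADH dehydrogenase, a single protein that oxidises NADH and reduces ubiquinone in place of respiratory complex I. No library is labelled with a drug treatment. By their mouse numbers the livers form 2 series. The lower numbers, series 1, are replicates 1 to 5 of both genotypes. The higher numbers, series 2, are the remaining 3 NDI1 mice (replicates 6 to 8) and 8 wild-type mice (replicates 6 to 13). Within them the numbers form 6 runs of consecutive or nearly consecutive mice, and the last 2 runs, wild-type replicates 11 to 13, hold no NDI1 mouse. The promoter or Cre line that drives NDI1, the sex of the mice, and the day or hour of harvest are not given in these sources. Litters are not stated either, so the p-values below measure the spread between these mice.

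Liver tissue is mostly hepatocytes by mass, with endothelial cells, macrophages, stellate cells, bile duct cells and blood. As background, many liver transcripts follow feeding, the time of day, hormones, inflammation and the position of a hepatocyte along the lobule, so mice of one inbred strain can differ in them at the moment of harvest. In whole tissue, fewer cells of a type and less RNA per cell cannot be told apart. The liver label could not be checked against marker genes, because the rows carry no names.

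Libraries held 11.1 to 19.3 M counts in wild-type mice and 10.7 to 20.5 M in NDI1 mice, and series 1 was the deeper. The 200 rows took 0.826% to 1.18% of a wild-type library's counts (median 1.01%, n = 13) and 0.805% to 1.54% of an NDI1 library's (median 0.897%, n = 8). The 1.54% belongs to NDI1 replicate 7, which stood apart from the other NDI1 livers in several results below, and these are given with and without it. All 200 rows passed the filter on low counts, among 11814 rows tested between genotypes.

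The 200 rows had a median wild-type SD of 0.68 log2 units (0.55 to 2.69), against 0.20 in the other 5860 eligible rows. Of the 200, 37 had an SD over 1 log2 unit and 4 over 2. These SDs chose the rows and are a description only. The spread that counting alone would give at each row's mean wild-type level had a median of 0.080 log2 units and was at most 0.121. Every one of the 200 rows varied by at least 4.66 times this counting error, with a median of 9.28 times. Counting error is larger in livers where a row lies far below its mean. Row 22475, for one, had 0 counts in wild-type replicate 7 and 17 in wild-type replicate 3. Their mean wild-type levels ran from 10.0 to 540 CPM (median 22.8), and 41% of them lay under 20 CPM, against 33.0% of all eligible rows. At the edge of the selection, row 11126 had an SD of 0.5522 and row 7142 one of 0.5496 just inside it, and row 2268 (0.5495) and row 11935 (0.5491) lay just outside. No step in the SD separates the rows inside from those outside.

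In NDI1 livers, which the selection did not use, the same rows were also variable. Their median SD over the 8 NDI1 residuals was 0.53 log2 units (0.08 to 2.61), against 0.17 in the other eligible rows. Among the 200 rows, 189 exceeded the NDI1 median of all eligible rows and 164 lay in its top 10%. When the 200 most variable eligible rows were taken from the NDI1 livers in the same way, 100 rows were in both sets, where 3.3% of eligible rows belong to the NDI1 set. The NDI1 SD was the larger one in 55 of the 200. The 2 subtracted means use up more of the smaller group, which by itself lowers an NDI1 SD by 3.30% against a wild-type SD. In the opposite direction, the 200 rows picked in NDI1 livers had a median SD of 0.66 there and 0.55 in wild-type livers, so each set was wider in the group that chose it.

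**Figure D1:**
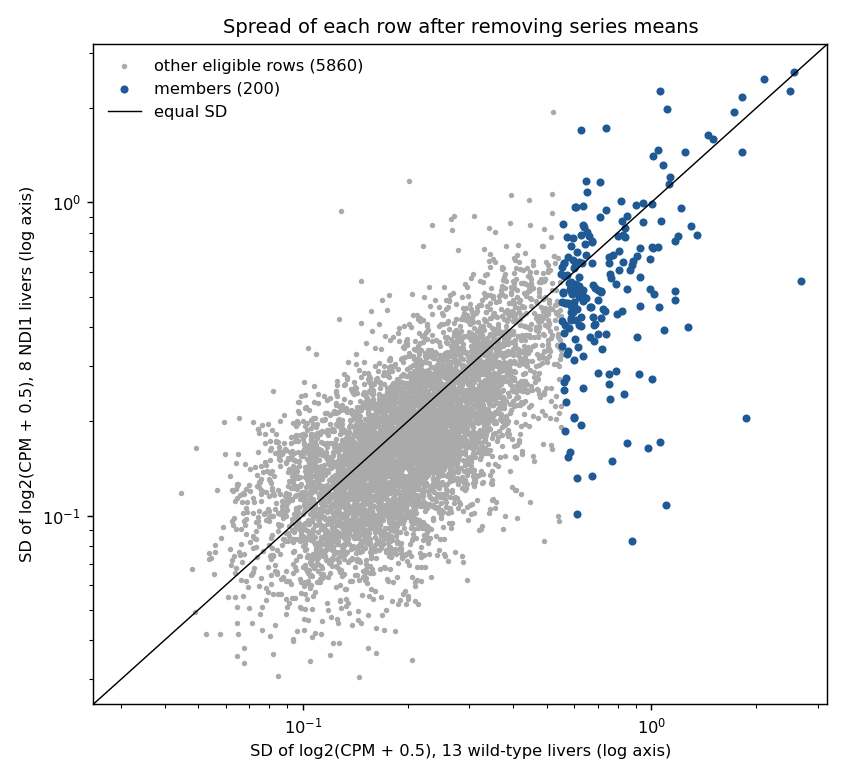
Each point is one eligible row, with its SD of log2(CPM + 0.5) residuals over 13 wild-type livers on the horizontal axis and over 8 NDI1 livers on the vertical axis, both on log scales. The 200 rows selected on the horizontal axis sit at the right edge, and 100 of them are also among the 200 highest on the vertical axis.

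Among the 5 rows of largest SD, a row could be near 0 in most livers and abundant in a few. Row 22475 (SD 2.69) stood at 62.6, 89.8 and 64.2 CPM in wild-type replicates 2, 8 and 9, and at 1.03 CPM or less in the other 10 wild-type livers. All 8 NDI1 livers lay at 1.44 CPM or less, so no NDI1 mouse had the high state of this row. Row 33 (SD 1.87) had the same form with other mice, at 57, 74.6 and 83.5 CPM in wild-type replicates 4, 10 and 11 and at most 5.67 CPM in the other wild-type livers. In NDI1 livers row 33 ran from 2.33 to 4.30 CPM (SD 0.21 log2 units), again without a high mouse. With 3 high mice of 13 in each case, and 8 NDI1 mice, these counts do not separate the genotypes.

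Row 2257 (SD 2.57) was high in both genotypes. It reached 155 CPM in wild-type replicate 8 and 279 CPM in NDI1 replicate 7, while its median was 0.446 CPM in wild-type livers and 1.13 CPM in NDI1 livers. Wild-type replicates 1 and 3, at 28.6 and 31.8 CPM, and NDI1 replicate 3, at 16.4 CPM, lay between. Row 32203 (SD 2.50) switched between absence and a moderate level: it was at 0 in wild-type replicates 3, 4, 7 and 9 and in NDI1 replicates 3, 7 and 8. In the remaining livers it lay between 7.25 and 36.4 CPM, with none in between, and both genotypes had livers in each state. Row 37698 (SD 2.11) was likewise at 0 in wild-type replicates 1, 2 and 11 and in NDI1 replicates 1, 4, 5 and 6, with a highest value of 60.2 CPM in wild-type replicate 7. Exact zeros were not common in the set: 6 of the 200 rows had any library at 0. Where a row overlaps or resembles another, the submitters' counting could move reads from one to the other, and whether it did so here was not tested.

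**Figure D2:**
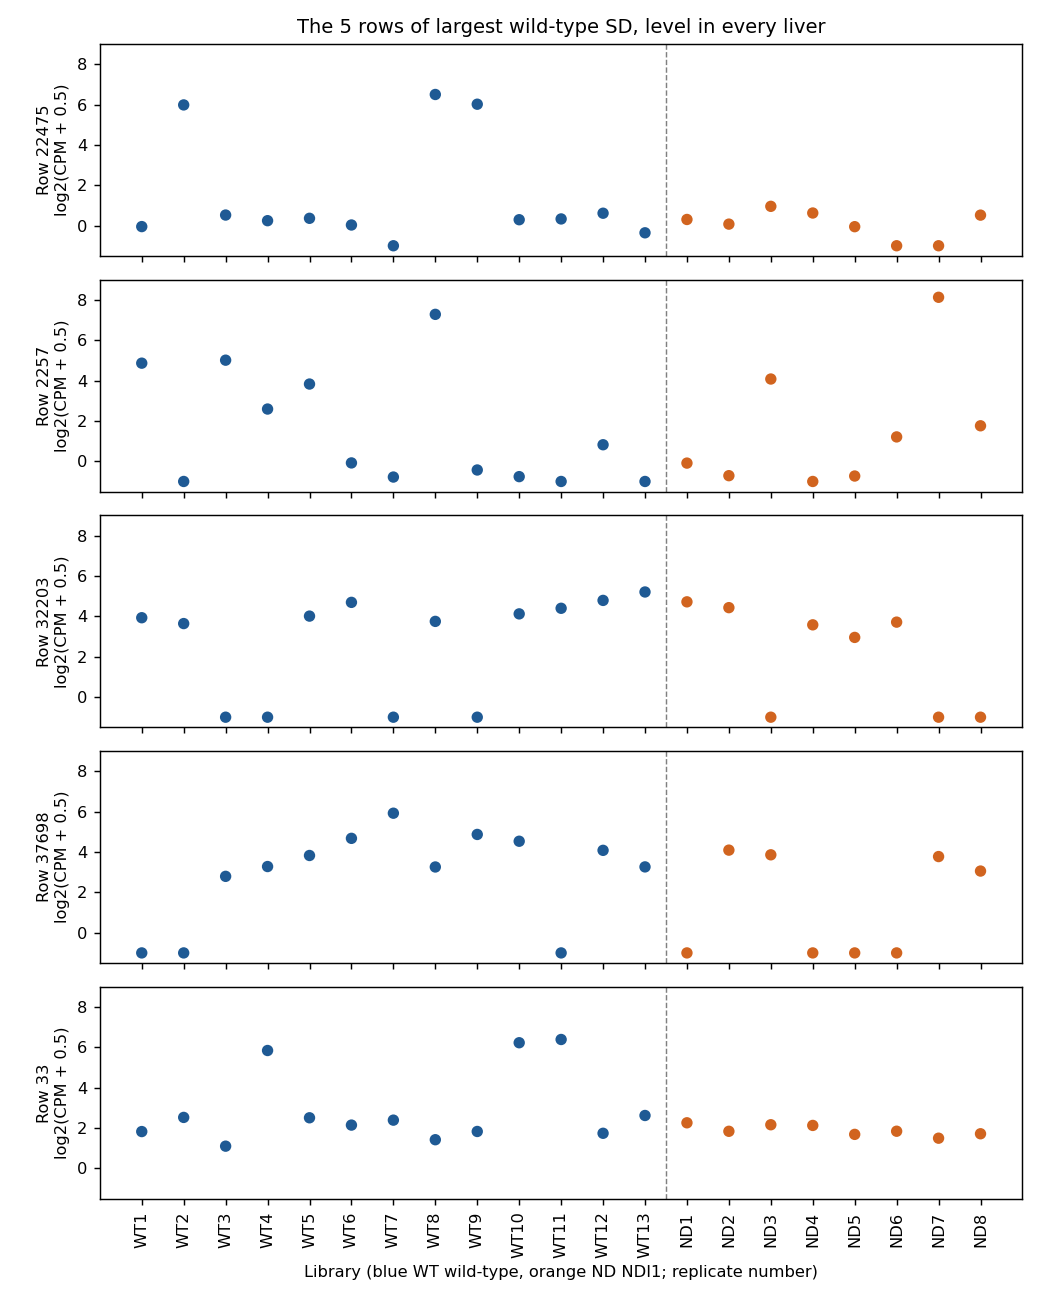
The CPM of the 5 rows of largest wild-type SD is drawn on a log2(CPM + 0.5) axis, one point per liver, wild-type beside NDI1. Rows 22475 and 33 have 3 high wild-type livers and no high NDI1 liver, and rows 2257, 32203 and 37698 have high and low livers in both genotypes.

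Single mice carried part of the set. In 38 of the 200 rows one wild-type mouse held more than 0.5 of the sum of squared residuals, and in 31 of the 38 that mouse was high. Wild-type replicate 8 had the largest residual in 31 rows and held 13.9% of all squared residuals of the set. Wild-type replicate 13 had the largest residual in 22 rows, and replicates 2 and 10 in 20 rows each.

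The 200 rows did not move as one. Over all 19900 pairs of them, the median correlation was 0.02 in wild-type livers and 0.02 in NDI1 livers, and pairs of other eligible rows had medians of 0.09 and 0.05. Clustering of the wild-type residuals (average linkage, joined down to a mean Pearson correlation of 0.5) gave 44 clusters. In all, 5 of them held at least 10 rows, and these blocks are lettered A to E by size, with 26, 16, 13, 13 and 11 rows, or 79 rows in all. The other 121 rows fell into 36 clusters of 2 to 9 rows, the largest of 7, and 3 rows that joined none. Correlations within a block in wild-type livers made the block and support nothing. The values in NDI1 livers are new to the blocks.

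**Figure D3:**
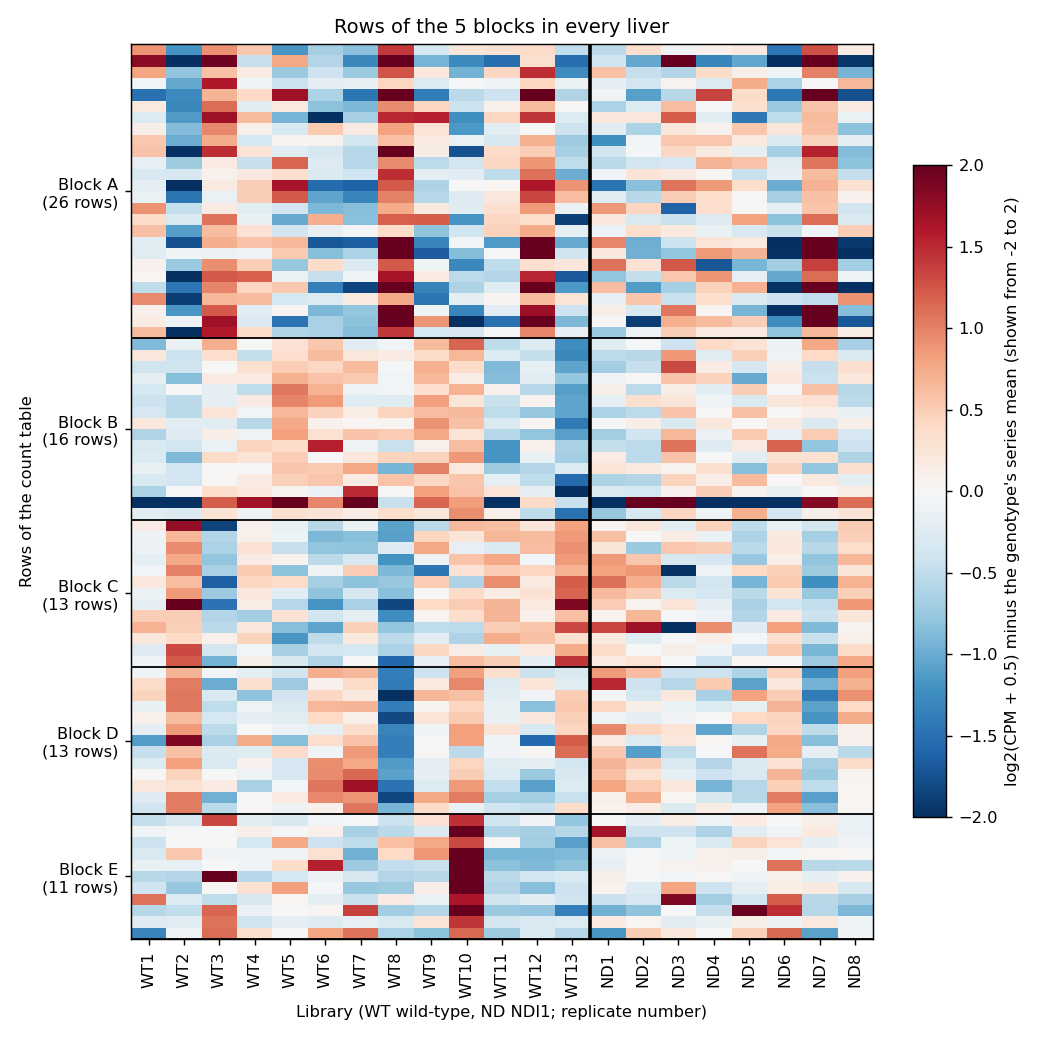
Colour gives the residual log2 level of each of the 79 rows in blocks A to E (vertical) in each liver (horizontal), with the mean of the liver's genotype and series subtracted and wild-type livers to the left of NDI1 livers. Within blocks A, C and D the rows of an NDI1 liver mostly share a sign, and in blocks B and E they do so less clearly.

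A row was counted as following its block in NDI1 livers when its residuals there had a Pearson correlation over 0.5 with the mean of the other rows of the block. Rows outside the set pass this level too. The share of the 5860 eligible rows outside the set that pass it is given for each block. Of the 79 rows in blocks, 53 followed their own block. The rows of one block are not independent of each other, and the 8 livers are the same for all blocks, so the counts are descriptions with no test.

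Block A (26 rows, mean wild-type levels 11.0 to 377 CPM) had the widest swing. Its mean residual in wild-type livers ran from -1.25 in replicate 2 over a median of -0.14 to 1.63 in replicate 8, with replicates 12 (1.29) and 3 (0.88) next highest. In NDI1 livers it ran from -0.94 in replicate 6 over a median of -0.04 to 1.51 in replicate 7. The other 6 NDI1 livers lay between -0.58 and 0.27, so a single NDI1 mouse had a high state like that of wild-type replicates 8 and 12. In NDI1 livers 19 of 26 rows followed the block, against 13.7% of eligible rows outside the set, and the median correlation between pairs of its rows was 0.45 (0.63 in wild-type livers). Without NDI1 replicate 7, 7 of 26 rows followed it, against 21.4% outside the set. The sharing of block A by NDI1 mice thus rested on that one mouse. In wild-type livers, where the block was chosen, replicate 8 held the largest share of its squares (26.3%).

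The leading rows of block A are those of highest correlation with the rest of the block in wild-type livers. Row 22635 ran from 12.3 to 232 CPM in wild-type livers (median 43.9) and from 15.0 to 460 CPM in NDI1 livers (median 33.8), with NDI1 replicate 7 highest. The next highest NDI1 liver for row 22635 was replicate 3, at 67.8 CPM. Row 31215 ran from 16.0 to 196 CPM in wild-type livers (median 43.0) and from 69.4 to 209 CPM in NDI1 livers (median 152). Replicate 7, at 191 CPM, was not the highest NDI1 liver for row 31215, whose upper values overlapped those of wild-type livers.

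Block D (13 rows, 13.2 to 359 CPM) was close to a mirror of block A. Its mean residual in wild-type livers ran from -1.42 in replicate 8 over a median of -0.09 to 0.88 in replicate 2, the mice at the opposite ends of block A. In NDI1 livers it ran from -0.86 in replicate 7 over a median of -0.02 to 0.58 in replicate 6, again the opposite ends. Across livers the means of blocks A and D had a correlation of -0.94 in 13 wild-type livers and -0.90 in 8 NDI1 livers. Without wild-type replicate 8 and NDI1 replicate 7 these were -0.91 and -0.61. The points of both means share libraries. A library's total scales all its rows alike, which moves both means in the same direction. In NDI1 livers 12 of 13 rows followed block D, against 27% of eligible rows outside the set, and 6 of 13 did without NDI1 replicate 7 (17.8% outside the set).

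Row 6328, a leading row of block D, ran from 6.30 to 40.1 CPM in wild-type livers (median 17.8) and from 4.23 to 17.8 CPM in NDI1 livers (median 12.2). Row 16689, the other, ran from 16.9 to 72.3 CPM (median 32.8) and from 18.1 to 98.1 CPM (median 45.0). In NDI1 livers both rows were lowest in replicate 7 and highest in replicate 1, and both were lowest in wild-type replicate 8.

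Block C (13 rows, 14.4 to 514 CPM) was also shared by NDI1 mice. Its wild-type mean residual ran from -0.98 in replicate 8 over a median of 0.05 to 0.98 in replicate 13, with replicate 2 at 0.97. The NDI1 residual ran from -0.69 in replicate 7 over a median of 0.11 to 0.53 in replicate 1. In NDI1 livers 12 of 13 rows followed the block, against 25% of eligible rows outside the set. Without NDI1 replicate 7 the count was 9 of 13 (19.4% outside), and it was 9 to 12 whichever NDI1 liver was left out. The median pair correlation was 0.58 in NDI1 livers and 0.43 without replicate 7. Blocks C and D had a correlation of 0.50 in wild-type and 0.83 in NDI1 livers, or 0.23 without wild-type replicate 8 and 0.66 without NDI1 replicate 7. Blocks B and C had -0.67 and -0.71, and -0.76 in both genotypes without those livers.

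Row 6195, of block C, is among the more abundant and more variable rows of the set. It ran from 106 CPM in wild-type replicate 8 over a median of 422 to 1590 CPM in wild-type replicate 2, and from 78.2 to 232 CPM in NDI1 livers (median 157). Its partner row 3551 ran from 11.0 to 46.0 CPM (median 22.3) and from 6.73 to 33.9 CPM (median 16.6), with the same mice at both ends in both genotypes. The highest NDI1 liver for row 6195 lay below the wild-type median, and the groups overlapped.

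Block B (16 rows, 10.2 to 138 CPM) followed the runs of mouse numbers in wild-type livers. Of the squares of its wild-type mean residual, 91.3% lay between runs, against 16.8% to 61.3% for the other blocks. The runs take 4 of the 11 degrees of freedom left within series, or 36.4%, and 2 of the 6 runs are single wild-type mice, whose squares all count as between runs. In single eligible rows outside the set the same share had a median of 49.5%. Its mean residual was 0.43 in the run of wild-type replicates 6 to 10, all 5 above 0, and -0.51 in that of replicates 11 and 12 and -1.13 in replicate 13. In series 1 it was -0.48 in replicates 1 and 2, 0.15 in replicates 3 and 4 and 0.66 in replicate 5. What a run of numbers stands for (a litter, a cage, a date) is not stated. No NDI1 mouse has a number in the last 2 runs, so the low values of those runs could not be looked for in NDI1 livers. In series 1 the NDI1 residual was -0.42 in replicate 1 and -0.06 in replicate 2, each the only NDI1 mouse of its run. Replicates 3 to 5, the next run, averaged 0.16 (-0.05 to 0.57). The 3 runs thus had the same order as in wild-type livers, but replicate 3 alone was above 0. The NDI1 residual ran from -0.42 in replicate 1 to 0.57 in replicate 3, with the other 6 livers between -0.08 and 0.15. In NDI1 livers 6 of 16 rows followed the block, against 18.7% of eligible rows outside the set, and 2 to 7 did when one NDI1 liver was left out. The lowest count came without NDI1 replicate 3.

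The leading rows of block B had narrower ranges. Row 3228 ran from 17.4 to 60.7 CPM in wild-type livers (median 36.3) and from 16.2 to 66.3 CPM in NDI1 livers (median 25.3). Row 3628 ran from 9.49 to 40.1 CPM (median 21) and from 6.58 to 20.6 CPM (median 12.6). NDI1 replicate 3 was the highest NDI1 liver for both.

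Block E (11 rows, 11.0 to 84.0 CPM) was led by one mouse. Wild-type replicate 10 had a mean residual of 2.15, the next highest was 0.57 in replicate 3, and the other 11 lay between -0.68 and 0.16. That mouse held 53.8% of the block's squared residuals. Without it, the median pair correlation in wild-type livers fell from 0.66 to 0.17 and 5 of 11 rows kept a correlation over 0.5 with the block. The NDI1 residuals lay between -0.25 and 0.47, and no NDI1 liver came near the value of wild-type replicate 10. In NDI1 livers 4 of 11 rows followed the block, against 22.2% of eligible rows outside the set, and 1 to 6 did when one NDI1 liver was left out. The 1 came without NDI1 replicate 6.

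Row 10408, a leading row of block E, stood at 176 CPM in wild-type replicate 10 against a wild-type median of 13.8 and ran from 8.10 to 25.8 CPM in NDI1 livers. Row 6368 stood at 74.7 CPM in that mouse against a median of 5.87. In NDI1 livers row 6368 ran from 4.75 to 26.9 CPM (median 6.05), highest in replicate 1, where row 10408 was not at its highest.

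**Figure D4:**
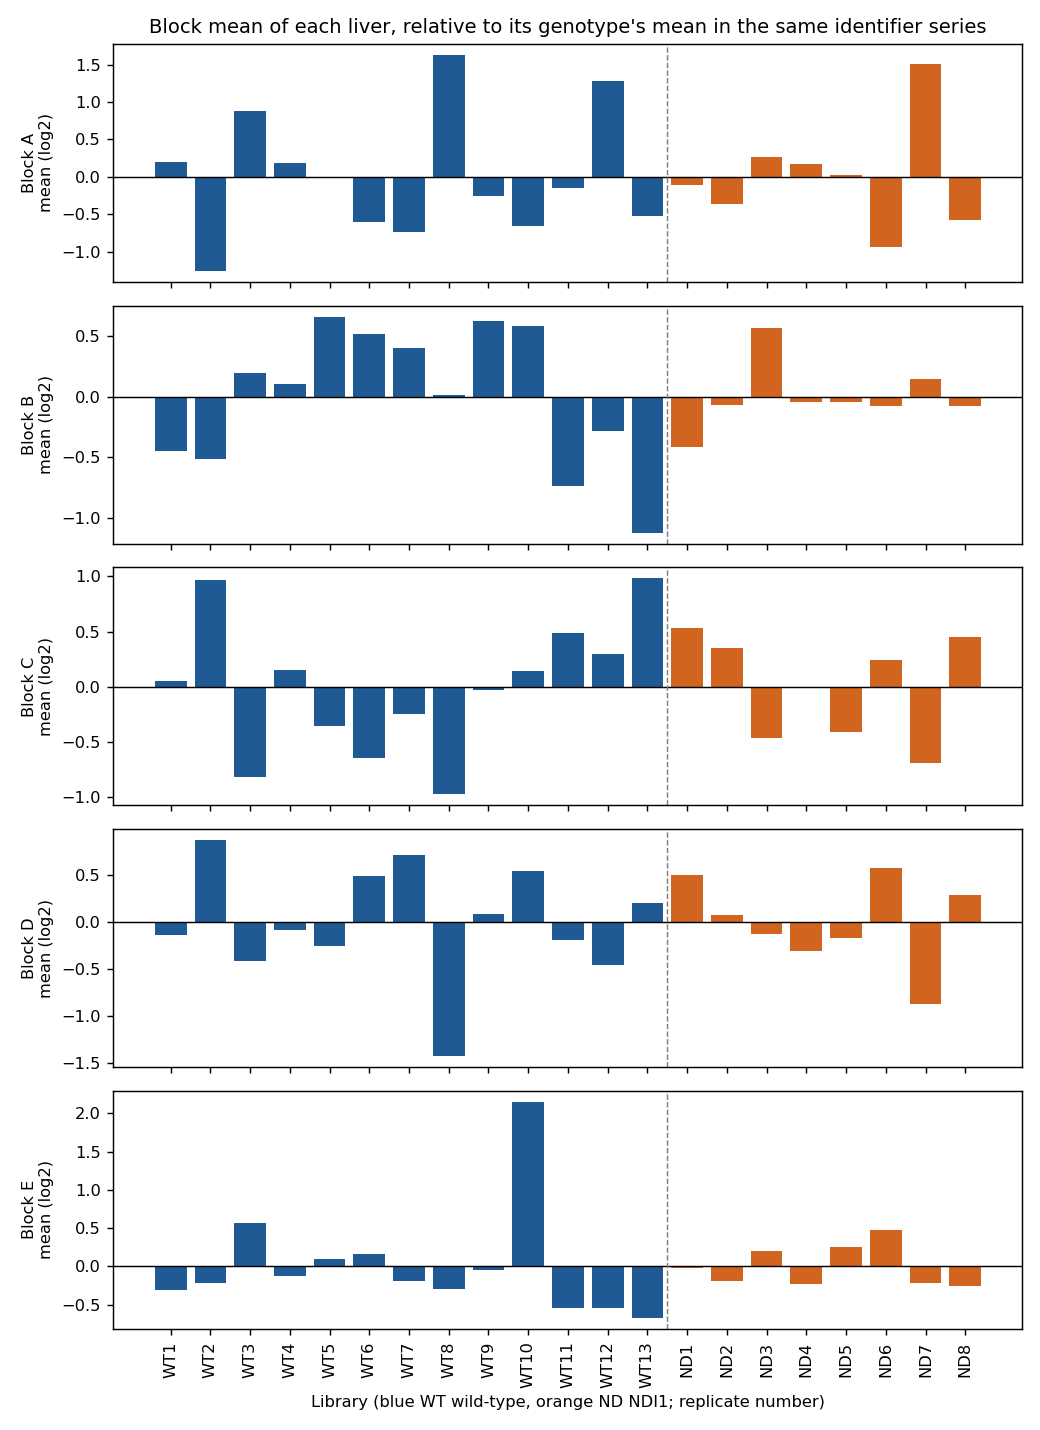
Bars give the mean residual log2 level of the rows of each block in each liver, with the mean of the liver's genotype and series subtracted, wild-type and NDI1 livers apart. Blocks A and D point in opposite directions in wild-type replicate 8 and in NDI1 replicate 7, and the bar of wild-type replicate 10 in block E reaches 2.15 while no NDI1 bar of that block passes 0.47.

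Library measures moved with some blocks, and their part in the blocks was not tested. Across livers, with series means removed, the share of counts in the 200 most abundant rows had correlations of -0.72 with block B and -0.72 with block E in wild-type livers (n = 13), and of -0.40 and -0.76 in NDI1 livers (n = 8). For block A these were 0.50 and 0.33, and for block D -0.55 and -0.24. The number of rows detected had correlations of 0.43 and 0.71 with block D, and of 0.58 and 0.33 with block C. Block E changed sign between genotypes, with -0.35 in wild-type and 0.78 in NDI1 livers for the rows detected, and -0.57 and 0.78 for the log2 of the library total. With the means of the runs of mouse numbers subtracted in place of series means (6 NDI1 livers), 21 of 26 rows followed block A (17.3% outside the set), 5 of 16 block B (15.0%), 10 of 13 block C (32.7%), 11 of 13 block D (36.8%) and 5 of 11 block E (29.6%).

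One pair of rows per block was tested in the NDI1 livers: its leading rows, chosen on wild-type values alone. The test was an exact permutation of Pearson's r, two-sided, with NDI1 livers permuted within series (720 permutations, smallest possible p 0.00139), adjusted over the 5 pairs. In block D, rows 6328 and 16689 were correlated in NDI1 livers, with r = 0.83 (n = 8, exact permutation p = 0.00556, adjusted p = 0.0278). Spearman's rho was 0.81 (exact permutation p = 0.0236, adjusted p = 0.0995). Leaving out the 2 livers farthest from the median of row 6328, NDI1 replicates 7 and 6, gave r = 0.94. Over the 11 alternatives the adjusted exact permutation p of this pair ranged from 0.0278 to 0.139, and without NDI1 replicate 7 it was 0.0833. The pair in wild-type livers had r = 0.84.

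In the other 4 blocks the pair did not pass. Rows 6195 and 3551 of block C had r = 0.70 in NDI1 livers (n = 8, exact permutation p = 0.0889, adjusted p = 0.222; rho = 0.76), and 0.59 without the 2 farthest livers. Rows 3228 and 3628 of block B had r = 0.65 (exact permutation p = 0.178, adjusted p = 0.226; rho = 0.76), and 0.67 without the 2 farthest. Rows 22635 and 31215 of block A had r = 0.68 (exact permutation p = 0.181, adjusted p = 0.226; rho = 0.60), which was 0.14 without NDI1 replicates 7 and 6, so that relation rests on those livers. Rows 6368 and 10408 of block E had r = 0.13 (exact permutation p = 0.796, adjusted p = 0.796; rho = 0.48), and -0.12 without the 2 farthest. Their wild-type r of 0.94 was 0.55 without wild-type replicate 10. The wild-type r of the other pairs was 0.97 for block C, 0.93 for block B and 0.84 for block A.

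**Figure D5:**
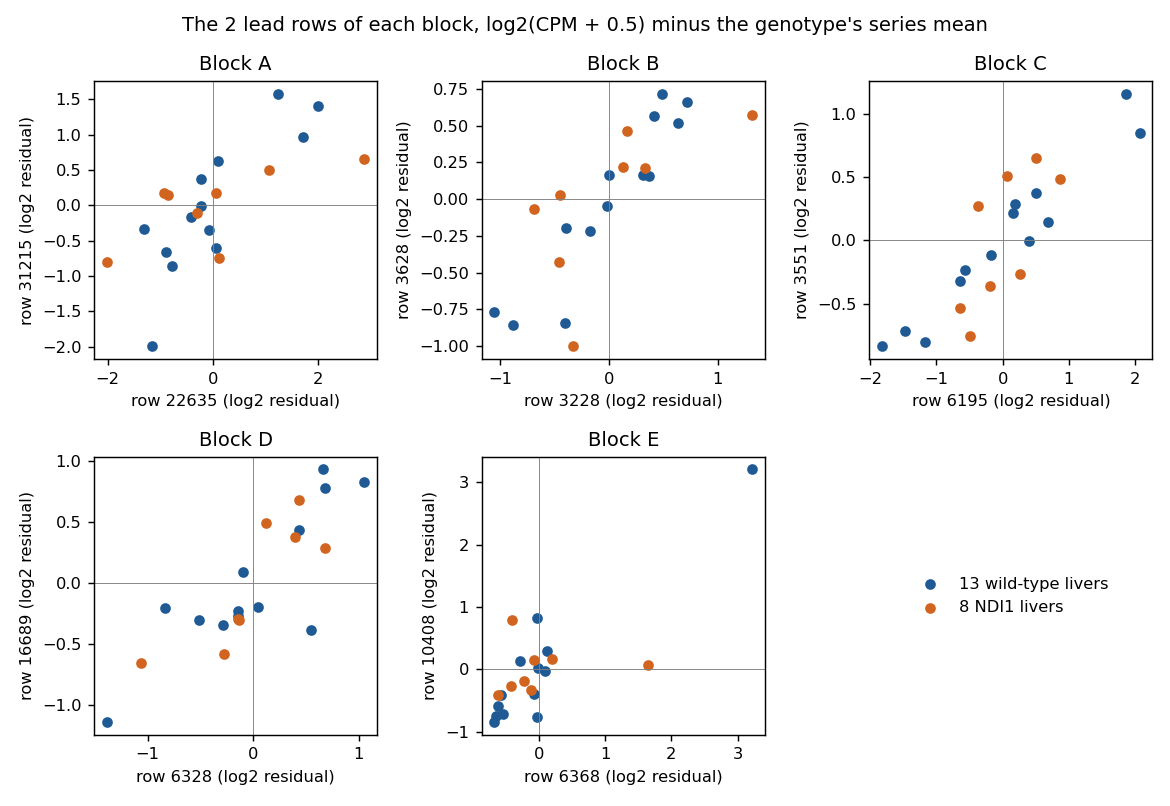
Each panel plots the residual log2 levels of the 2 leading rows of a block against each other, one point per liver, wild-type and NDI1 in different colours. NDI1 points of block D lie along the line of the wild-type points (r = 0.83), and in block E wild-type replicate 10 lies far from all other livers.

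Less variable rows outside the set moved with the blocks too. In wild-type livers 188 of the 5860 eligible rows outside the set had a correlation over 0.8 with the mean of block C, and 162 of these had one over 0.5 in NDI1 livers, against 25% of all 5860. For block D 121 of 154 such rows did, against 27%. For block B 272 of 493 did, against 18.7%. For block A 13 of 21 did, against 13.7%, and for block E 9 of 40, against 22.2%. Block A had more rows that opposed it: 132 rows were under -0.8 in wild-type livers, and 91 of these were under -0.5 in NDI1 livers, against 27.9% of all. Without NDI1 replicate 7 the counts were 145 of 188 for block C (19.4% of all rows), 97 of 154 for block D (17.8%), 311 of 493 for block B (23.6%), 6 of 21 for block A (21.4%) and 12 of 40 for block E (26.6%). The opposing count of block A was then 62 of 132 (18.3%). The spread of these rows was modest, with a median wild-type SD of 0.19 log2 units for the rows that moved with blocks C and D.

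Some rows of the set lie beside each other in the table. There were 7 pairs of adjacent row numbers, and 6 of the 7 had a correlation over 0.5 in NDI1 livers, against 19.3% of the 1937 other adjacent eligible pairs. The closest were rows 8557 and 8558 of block A (0.99 in wild-type and 0.87 in NDI1 livers) and rows 19716 and 19717 (0.98 and 0.97), named after their values were seen. Rows 12019 and 12020, also named after the fact, opposed each other, with -0.51 and -0.47. Whether neighbours share reads or sequence was not tested.

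Over the 200 rows, livers can be compared by their residuals. NDI1 replicate 7 was most like wild-type replicate 8 (r = 0.59 across rows), the highest value of all pairs of livers. These 2 mice carry consecutive numbers, but wild-type replicate 7, the neighbour on the other side, had -0.22 with NDI1 replicate 7. Residuals sum to 0 within a genotype and series, which lowers correlations inside such a group. A ranking over all pairs thus favours livers of different groups. Among wild-type livers, NDI1 replicate 7 was least like replicate 2 (-0.50). Among the same livers, NDI1 replicate 6 was most like replicate 2 (0.43) and least like replicate 3 (-0.43). For the other 6 NDI1 livers the most similar wild-type liver had a correlation of 0.16 to 0.35. Rows are not independent replicates, so these correlations describe the livers only.

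The genotypes themselves were compared with edgeR's quasi-likelihood test and a term for series, over all 11814 rows. The selection used the wild-type values, which form one side of this contrast, but not the NDI1 values. No row of the 200 passed a Benjamini-Hochberg adjusted p of 0.05 (smallest 0.157), and 0.0254% of all rows tested, or 3, did. At an unadjusted p under 0.05, edgeR gave 28 of the 200 rows (14%), 7 higher and 21 lower in NDI1 livers, against 9.96% of all rows. DESeq2 called 4 of the 183 it gave an adjusted p (0.888% of all rows with one), and limma-voom called 0. The median log2 difference, NDI1 minus wild-type, was -0.14 over the 200 rows, with 126 negative and 74 positive, against 0.00 over all rows. A row high in NDI1 livers alone could not enter the set, and a row high in a few wild-type livers could. A lean toward lower levels in NDI1 livers can thus follow from the selection. These signs, and those by block below, are a description only. The 95% interval of the difference stayed within 2-fold in 50.5% of the 200 rows and in 90.7% of all rows. Genotype differences were thus measured less precisely in these rows, which follows from choosing them for a wide spread.

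Row 6195 was among the 4 DESeq2 calls. It averaged 514 ± 457 CPM in wild-type livers (SD, n = 13) and 151 ± 57.9 CPM in NDI1 livers (SD, n = 8), a log2 difference of -1.85 (SE 0.46) with an edgeR adjusted p of 0.180 and a DESeq2 adjusted p of 0.0199. The groups overlapped, with wild-type replicates 3, 6 and 8 within the NDI1 range. Row 3628 of block B differed by -0.80 (edgeR adjusted p 0.225, DESeq2 adjusted p 0.0495). The other DESeq2 calls, named because there were only 4, were row 597 of block C (DESeq2 log2 difference -1.02, adjusted p 0.0286) and row 2510, outside the blocks (2.31, adjusted p 0.0155).

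By block, the median edgeR log2 difference between genotypes was 0.40 for block A (22 of 26 rows positive), -0.04 for block B, -0.51 for block C (13 of 13 negative), -0.61 for block D (11 of 13 negative) and -0.32 for block E. Rows of a block share their livers, so a shared sign is not repeated evidence. Without NDI1 replicate 7 the median was -0.21 for block A (9 of 26 positive), -0.39 for block C and -0.50 for block D. Block A was -0.23 in series 1 alone and 0.78 in series 2 alone, which holds that mouse. With the runs of mouse numbers as terms in place of series, the median was 0.46 for block A, -0.33 for block B (16 of 16 rows negative, against 9 of 16 with series as the term), -0.30 for block C (8 of 13 negative), -0.44 for block D and -0.54 for block E. The values for blocks B, C and E thus moved by over 1.5 times with that choice, while edgeR still called 0 of the 200 rows.

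Series 2 was compared with series 1 in the same model. The SD behind the selection was taken after series means were subtracted, but the minimum of 10 CPM was set on wild-type means over both series. Of the 200 rows, 7 averaged at least 10 CPM in wild-type livers of series 1 only and 15 in those of series 2 only. A row far apart between series could thus pass through one series alone, and the counts below are a description of the set. In all, 4 of the 200 rows (2%) passed in edgeR's test, against 6.11% of all rows, and 18 (9%) passed an unadjusted p under 0.05, against 19.6%. DESeq2 called 7, against 6.95% of its rows. None of the 4 lies in a block. Row 40498 was nearly a marker of series: it ran from 19.9 to 54.6 CPM in the 10 livers of series 1 and from 0 to 1.60 CPM in the 11 of series 2, with no overlap. Its log2 difference was -6.18 (SE 0.59, edgeR adjusted p 6.16e-07), and it passed the 10 CPM minimum through series 1 alone. The largest wild-type residual of row 40498, 1.36 in replicate 11 of series 2, stood on 19 counts. Row 3109 was lower in series 2, at 9.61 ± 5.66 CPM (SD, n = 11) against 26.0 ± 9.36 CPM (SD, n = 10), a log2 difference of -1.42 (SE 0.26, edgeR adjusted p 0.0020).

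The other 2 were higher in series 2. Row 32160 stood at 18.3 ± 8.99 against 7.39 ± 2.58 CPM, a log2 difference of 1.35 (SE 0.26, edgeR adjusted p 0.0060), and passed the 10 CPM minimum through series 2 alone. Row 11191 stood at 22.4 ± 4.53 against 10.3 ± 6.55 CPM, a difference of 1.22 (SE 0.33, edgeR adjusted p 0.0308). Row 11191 was not called without NDI1 replicate 6, 7 or 8 or wild-type replicate 1, nor when the filter on low counts was dropped. In wild-type livers alone (5 against 8), edgeR's test called row 32160 only (adjusted p 0.0387), against 75 of all 10116 rows tested. Row 3109 then had a log2 difference of -1.42 (edgeR adjusted p 0.0885) and row 11191 one of 0.88 (edgeR adjusted p 0.279), and row 40498 fell under the filter on low counts and was not tested. The series also differ in depth, which cannot be told apart from the series.

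A genotype difference that itself differed between series was called in no row of the set by edgeR, where 0% of all rows were called, or by DESeq2, where 0.0253% were. At an unadjusted p under 0.05, edgeR gave 22 of the 200 rows (11%), against 5.6% of all rows. Without NDI1 replicate 7 it gave 6 of the 200, and 17 to 30 when any other liver was left out. In limma-voom, with all livers, the count was 10. The share of all rows was not taken for these other counts. The median SE of this interaction over the set was 0.61 log2 units, so differences of about that size were not detectable here.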

How the data were processed

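Polyadenylated RNA from snap-frozen liver was sequenced single-end for 100 cycles, from 500 ng of total RNA, per the labels' protocols. Salmon 1.5.2, STAR 2.6.1d, Trim Galore 0.6.7 and the build GRCm38 appear in the submitters' processing notes. The annotation is not given in the sources used here, nor is the tool that counted. In the deposited table the values are whole-number counts per row, without normalization, and may be rounded Salmon estimates. Row order was not used to infer names.

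CPM used column totals and residuals log2(CPM + 0.5). The 2 series, and the runs within them, were read from the mouse numbers. Tests used edgeR 4.0.16 in R 4.3.3 (filterByExpr by genotype, TMM, robust quasi-likelihood, genotype and series as terms, Benjamini-Hochberg over all 11814 rows, threshold 0.05). DESeq2 1.42.0 and limma 3.58.1 voom were alternatives. Clustering and exact permutation tests used Python 3.11.15 with scipy 1.17.1. The edgeR and block steps were tested on simulated data.

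Same-genotype libraries differed beyond sampling noise (chi-square per row 11.3 to 132 over 106 pairs), so none were counted as duplicates. The labels do not say whether replicate numbers pair the mice. Same-number correlations ran from -0.16 to 0.14. On the residuals of the selected rows, which those values did not use, they ran from -0.41 (replicates 8) to 0.30 (replicates 3). With 8 such pairs, these values do not decide whether the mice were paired.

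The rows and every choice here were made with earlier results of these data known. Named are the 5 rows of largest SD, 2 on each side of the threshold, 2 leading rows per block and up to 2 called rows in each direction of the genotype and series tests, with exceptions stated. Leaving out a block's most extreme wild-type mouse, the values by block without NDI1 replicate 7 and the rows outside the set were added after seeing the data.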

Additional observations from a re-analysis of the deposited data

Results flagged for a closer look

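Within the NDI1 group, the highest or lowest liver was compared with its nearest neighbour for 28 quantities, the 5 block means and 23 named rows. The gap divided by the group's range passed the 95% critical value for 8 samples, 0.526, in 6 of them, where chance gives about 1.4. The quantities share livers and are not independent.

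NDI1 replicate 7 was the distant liver in 4 of the 6. Its gap was 0.714 of the range for the mean of block A, at 2.20 log2 units above the wild-type mean against at most 0.45 in the other NDI1 livers. For the mean of block D it was 0.583, at -1.65 against at least -0.51. For row 22635 of block A it was 0.563, and for row 6328 of block D 0.634. NDI1 replicate 1 was distant in the other 2, low for row 7142 (0.602) and high for row 6368 of block E (0.785).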

How the results depend on the processing

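The 100 rows shared with the most variable rows of the NDI1 livers stayed within 1.5 times under all 25 alternatives run. Of the 200 rows, 118 were selected again at a minimum of 20 CPM, which removes rows by construction, and 174 to 190 under the other 17 alternatives. The 79 rows in blocks became 120 when clusters were joined down to a mean correlation of 0.4 and 36 at 0.6. The 53 rows that followed their block became 32 at a correlation over 0.7, 29 with blocks at 0.6, and 33 to 53 with one NDI1 liver left out (33 without replicate 7). The 1 leading pair that passed became 2 without subtracting series means, and 0 to 2 with one NDI1 liver left out (0 without replicate 1, 2, 4 or 7, and 2 without 3 or 5). Rows called between genotypes were 0 in edgeR, 4 in DESeq2 and 0 under the other 30 alternatives. Rows called between series were 4 in edgeR, against 6.11% of all rows, and 7 in DESeq2, against 6.95%. At an adjusted p under 0.1 they were 8, for which the share of all rows was not taken. In wild-type livers alone (13 livers) 1 was called, against 75 of all 10116 rows tested. With one liver left out 3 to 7 were called (7 without wild-type replicate 3). Over all rows those fits called from 438 of 12073 (without NDI1 replicate 6) to 760 of 11931 (without wild-type replicate 12). The interaction gave 0 under all 26. The cause of these shifts was not tested.

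A replicate block on numbers 1 to 8 leaves out 5 wild-type livers. With it, edgeR called 0 of the 200 rows between genotypes, against 2 of all 11928 rows tested. At an unadjusted p under 0.05 it gave 21 of the 200. The share of all rows was not taken for that count, and in the main fit it was 9.96%. With the replicate block, the block medians were 0.10 for A, -0.19 for C and -0.47 for D. Of the 8 same-number correlations, 2 were over 0.1, and 0 of 8 NDI1 livers correlated best with their own number. These counts were not taken on the residuals of the selected rows. On those residuals NDI1 replicate 3 was most like wild-type replicate 3 (r = 0.30). Among wild-type livers, every other NDI1 liver was most like one of another number.

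With 8 NDI1 livers and 2 means removed, correlations are loose. Counting error at a row's mean level was small beside the spread between mice for every row of the set. At that level the number of mice, more than depth, limits these values. That does not cover row 40498 in series 2, where its wild-type livers lay far below its mean. They had 0 to 19 counts, with residuals from -0.71 to 1.36. Rows near 10 CPM have the least counts behind them.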
